A study of Arabidopsis thaliana with 12 samples.

Results

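Inflorescence stems of the double mutant ccrfer were compared with those of ccr1-3, the comparison that holds the CCR1 mutation constant and adds the fer mutation. Each genotype had 3 libraries, which are 6 of the 12 libraries of the study, and all 27655 genes of the expression table were considered. Of these, 18428 genes reached 1 FPKM (fragments per kilobase of transcript, scaled to the mapped fragments of the library) in at least 3 of the 12 libraries and were tested. Both genotypes carried ccr1-3, a mutant allele of CCR1 in Arabidopsis thaliana, and ccrfer carried a fer allele in addition. The genotype label names fer4 for ccrfer replicate 1, fer5 for replicate 2 and fer6 for replicate 3, while the titles give the 3 libraries as replicates of 1 double mutant. Libraries labelled fer (fer4 with CCR1 intact) and Col-0 wild type (WT), 3 each, are used beside the comparison. All plants were 2 months old. RNA came from main inflorescence stems, an organ of many cell types, so fewer cells of a type and less RNA per cell cannot be told apart. By its design text, the study set out to learn how much of the gene induction seen in ccr1-3 depends on FERONIA.

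CCR1 encodes cinnamoyl-CoA reductase, which commits phenylpropanoid intermediates to the building blocks of lignin, and its mutants are known for lignin-poor stems with weak xylem walls. FERONIA (FER) encodes a receptor kinase of the plasma membrane with malectin-like domains. It binds RALF peptides and wall pectin, acts as a scaffold for immune receptor complexes and is known to restrain jasmonate signalling, a hormone pathway of wounding and insect defence that often opposes the salicylic acid pathway used against biotrophic pathogens.

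The promoters below belong to genes that carry the main result, namely salicylic acid and receptor genes that were lower in ccrfer and jasmonate and endoplasmic reticulum body genes that were higher. Each window runs from 250 bases before to 50 bases after the gene start in the RefSeq annotation of TAIR10.1, 5′ to 3′ on the strand of the gene. Capitals mark the W-box core TTGAC bound by WRKY factors, the TGA factor core TGACG and the G-box CACGTG bound by MYC factors, searched on both strands; TTGAC and TGACG can overlap. NIMIN1 lies at chr1:498490-498789, minus strand, RLP23 at chr2:13862565-13862864, minus strand, VSP1 at chr5:8509152-8509451, minus strand, THI2.1 at chr1:27199419-27199718, minus strand and PYK10 at chr3:2843732-2844031, minus strand.
NIMIN1: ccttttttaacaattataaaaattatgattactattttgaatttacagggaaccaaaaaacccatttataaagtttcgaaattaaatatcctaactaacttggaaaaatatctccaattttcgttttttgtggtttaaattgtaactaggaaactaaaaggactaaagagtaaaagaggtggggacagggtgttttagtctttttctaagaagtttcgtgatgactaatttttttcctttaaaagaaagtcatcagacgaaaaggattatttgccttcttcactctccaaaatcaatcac
RLP23: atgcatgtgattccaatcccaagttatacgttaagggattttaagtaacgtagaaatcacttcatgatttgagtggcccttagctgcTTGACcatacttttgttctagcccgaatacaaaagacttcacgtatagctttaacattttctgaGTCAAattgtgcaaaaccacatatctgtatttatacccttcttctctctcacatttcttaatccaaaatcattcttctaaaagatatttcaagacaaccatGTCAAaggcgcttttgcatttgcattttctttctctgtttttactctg
VSP1: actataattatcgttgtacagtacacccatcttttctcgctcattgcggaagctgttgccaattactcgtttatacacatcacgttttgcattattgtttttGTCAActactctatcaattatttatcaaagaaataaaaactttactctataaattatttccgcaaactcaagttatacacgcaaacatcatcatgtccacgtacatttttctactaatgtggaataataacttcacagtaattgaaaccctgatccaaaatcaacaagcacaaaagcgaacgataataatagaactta
THI2.1: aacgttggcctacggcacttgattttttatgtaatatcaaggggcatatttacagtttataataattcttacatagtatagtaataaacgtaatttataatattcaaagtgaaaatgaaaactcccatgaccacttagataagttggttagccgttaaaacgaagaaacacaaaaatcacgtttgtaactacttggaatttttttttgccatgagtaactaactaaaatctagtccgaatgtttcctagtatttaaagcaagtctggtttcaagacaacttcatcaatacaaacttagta
PYK10: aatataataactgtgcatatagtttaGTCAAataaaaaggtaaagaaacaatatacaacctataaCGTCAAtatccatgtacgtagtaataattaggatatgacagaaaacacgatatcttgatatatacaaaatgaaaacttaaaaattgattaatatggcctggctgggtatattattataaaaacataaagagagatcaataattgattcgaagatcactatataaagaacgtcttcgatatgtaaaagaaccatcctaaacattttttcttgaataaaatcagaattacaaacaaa
The window of RLP23 held 3 W-box cores, that of PYK10 held 2 W-box cores and 1 TGA core, and that of VSP1 held 1 W-box core. None of the 3 motifs was in the windows of NIMIN1 and THI2.1. Over the 18263 windows of tested genes, 50.8% held a W-box core, 24.0% a TGA core and 8.88% a G-box. Among the 485 windows of genes called lower by 2-fold or more the shares were 63.7%, 33.0% and 9.90%, and among the 388 windows of genes called higher by 2-fold or more they were 45.1%, 23.5% and 10.6%. These shares are a description of letters in the windows and were not tested.

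Libraries of the 6 samples held 73646718 to 227159338 reads, of which 92.2% to 94.2% were mapped. Across tested genes, the ccrfer libraries varied more among themselves (median SD 0.202 on the log2(FPKM + 1) scale) than the ccr libraries (0.0780). ccrfer replicate 3 stood apart, with correlations of 0.939 and 0.938 to the other ccrfer libraries, which correlated at 0.983 with each other. It listed 9582 genes at 0 against 6242 and 7101, and was the ccrfer library farthest from the middle one in 2148 of the 3769 called genes. AT2G01021, an uncharacterized gene, had 45932600 FPKM there against 6128100 and 113705 in replicates 1 and 2. In ccr the same gene was at 59133, 410312 and 42536. Without this library 4039 genes were called, against 3769 with it.

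FER was at 100.4, 97.7 and 96.5 in ccr and 0.894, 0.159 and 1.49 in ccrfer (FPKM, here and below in the order of the replicates). Its transcript was thus close to absent from every ccrfer library, including those labelled with other fer allele numbers, and the difference was -5.81 (SE 0.197, adjusted p = 1.75e-09). Samples labelled fer nevertheless had 85.1, 83.1 and 84.0, and WT had 85.9, 83.5 and 83.0. FER expression therefore goes against the label of those 3 libraries, and they are called the libraries labelled fer. Genes on one side of FER were low in both sets of libraries with a fer label. DGAT2, which encodes a diacylglycerol acyltransferase, was at 18.6, 21.5 and 19.1 in ccr and 0.130, 0.0415 and 0 in ccrfer and at 0.374, 0 and 0 in the libraries labelled fer. AT3G51530 was at 5.78, 7.34 and 6.29 in ccr and listed at 0 in all 3 ccrfer libraries. AT3G51510, the gene beyond DGAT2, was at 19.0, 21.3 and 21.3 in ccr and 41.6, 33.7 and 34.2 in ccrfer and rose. AT3G51540, the nearest gene on that side, was at 0 in every library with a fer label and below 1 FPKM elsewhere. AT3G51560, the nearest gene on the other side, was at 3.43, 4.17 and 4.05 under the fer label. It was at 0.0404, 0.0452 and 0 in ccrfer and at 0.0222, 0.0133 and 0 in ccr. WT had 0, 0 and 0.0201. AT3G51560 thus set the libraries labelled fer apart from ccrfer as well as from WT, and the cause was not tested. CCR1, the gene mutated in both genotypes, was at 220.0, 189 and 188 in ccr and 207, 231 and 179 in ccrfer. Its difference did not pass the test (difference 0.05, SE 0.104, adjusted p = 0.798). WT had 256, 231 and 222, and ccr minus WT did not pass the limma test either (-0.25, adjusted p = 0.0738). The CCR1 transcript therefore does not check the ccr label.

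Of the 18428 genes, 1912 were called higher in ccrfer (10.4%) and 1857 lower (10.1%), 20.5% in all, at an adjusted p under 0.05 in limma. Counts of list members below are to be read beside these shares. Differences here and below are ccrfer minus ccr on the log2(FPKM + 1) scale, and their median over all tested genes was 0.00343. On that scale 393 of the called genes were higher and 485 lower by 2-fold or more, 71 and 85 by 4-fold or more, and 25 and 20 by 8-fold or more. The 25 include 5 genes listed at 0 in every ccr library, for which no fold is given below. Genes listed at 0 in every ccrfer library are counted on the lower side. The libraries of ccr and ccrfer did not overlap for 38.0% of tested genes. The genes called lower had a median of 24.96 FPKM in ccr, and those called higher a median of 10.4, against 11.8 in ccr for all tested genes. In ccrfer the order was reversed, with medians of 14.7 for genes called lower and 17.8 for those called higher, against 11.9. The order within a genotype is partly set by the direction of the call.

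**Figure D1:**
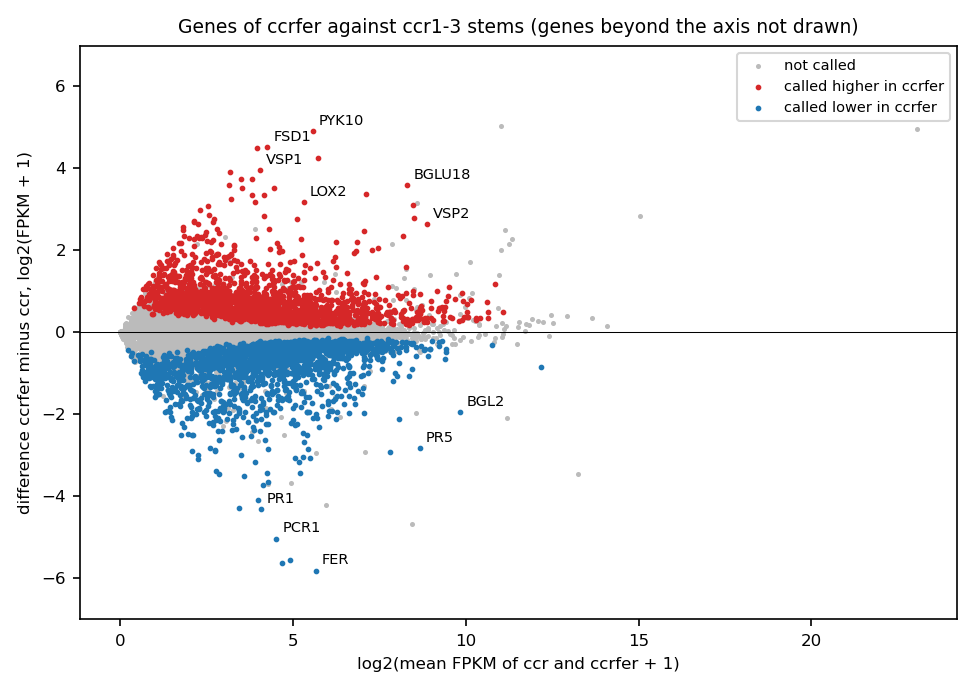
Difference ccrfer minus ccr on the log2(FPKM + 1) scale (vertical axis) against the log2 of the mean FPKM over both genotypes plus 1 (horizontal axis), 1 point per tested gene, with called genes in colour. FER, PCR1 and PR1 lie lowest among the genes with a name and PYK10 highest, and 5 genes listed at 0 in all ccr libraries lie beyond the axis and are not drawn.

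Among the genes with the largest called decreases were PCR1, a lectin gene, PR1 and LURP1. PCR1, a membrane protein of plant cadmium resistance, was at 45.2, 42.1 and 41.8 in ccr and 0.785, 0.346 and 0 in ccrfer (difference -5.04, SE 0.269, adjusted p = 9.36e-08). AT5G03350, which the reference annotates as a legume lectin, was at 28.4, 29.0 and 28.6 in ccr and 1.18, 1.35 and 0 in ccrfer, and LURP1, a gene of the late response to oomycete attack, at 71.5, 65.4 and 64.2 in ccr and 5.31, 4.75 and 5.76 in ccrfer. AT3G13610, a dioxygenase of the type that makes coumarins, was at 19.9, 23.3 and 20.2 in ccr and 0.694, 1.32 and 0.874 in ccrfer. All ccrfer libraries were below all ccr libraries in each, which was a condition of naming these genes. GSTF2, a glutathione transferase, had one of the largest losses in FPKM, from 442, 435 and 427 in ccr to 100, 103 and 95.2 in ccrfer. In the other direction AT4G11320, a papain-type protease, was at 0.320, 0.306 and 0.323 in ccr and 27.6, 27.3 and 31.0 in ccrfer (difference 4.49, SE 0.109, adjusted p = 9.08e-11), and PGL5, a 6-phosphogluconolactonase, at 1.12, 0.711 and 0.984 in ccr and 27.1, 30.0 and 18.8 in ccrfer. LTP4, a lipid transfer protein, had the largest gain in FPKM among called genes apart from 4 plastid genes, at 1131, 1180.1 and 1072 in ccr and 2524, 2437 and 2636 in ccrfer.

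Most genes of salicylic acid synthesis and output were lower in the double mutant, from the enzymes that make the hormone to the secreted proteins it induces. EDS16, isochorismate synthase at the entry of the pathway, was at 26.1, 26.3 and 24.96 in ccr and 6.12, 5.39 and 7.68 in ccrfer. PBS3, which conjugates isochorismate to glutamate on the way to salicylic acid, was at 21.6, 23.2 and 23.2 in ccr and 4.65, 4.22 and 2.70 in ccrfer. The differences of EDS16 and PBS3 were -1.87 (SE 0.1004, adjusted p = 9.96e-08) and -2.31 (SE 0.146, adjusted p = 4.15e-07). Of the 13 tested genes of synthesis and upstream signalling, 10 fell and 1 rose, with a median difference of -0.86. ACD6, an ankyrin membrane protein that promotes salicylic acid signalling, fell by 1.49 on the log2 scale. UGT76B1, a glucosyltransferase that inactivates salicylic and isoleucic acids, was at 3.31, 3.61 and 3.42 in ccr and 0.0964, 0.0771 and 0 in ccrfer, and it also fell (-2.07).

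Downstream, secreted pathogenesis-related proteins and the regulators around NPR1 were lower too. PR1, the classic marker of this output, was at 32.7, 28.5 and 31.3 in ccr and 1.03, 0.991 and 0 in ccrfer (difference -4.32, SE 0.258, adjusted p = 2.42e-07). BGL2 (PR2), a secreted glucanase, was at 1514, 1439 and 1394 in ccr and 360.1, 374 and 386 in ccrfer. PR5, a thaumatin-like protein, was at 749, 695 and 690.1 in ccr and 116, 111 and 75.3 in ccrfer. PR1 was listed at 0 in ccrfer replicate 3. These 3 genes were named on condition that ccr and ccrfer libraries did not overlap. NIMIN1 and NIMIN-2, which bind the receptor NPR1, differed by -3.38 and -1.90. The salicylic acid receptor genes fell as well, NPR3 by 1.00, NPR4 by 0.48 and NPR1 by 0.28. Among the TGA factors that bind NPR1, TGA1 fell (-0.67) and TGA3 rose (0.41). Of 16 tested genes of this list, 10 fell and 1 rose (median -0.39).

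WRKY factors, the regulators that bind W-boxes, moved both ways and more often down. Of 28 tested, 15 fell and 4 rose (median -0.69), the latter 2 to 4 over the alternative settings. WRKY70, a node between salicylic acid and jasmonate signalling, was at 76.4, 77.6 and 76.1 in ccr and 18.0, 19.8 and 14.0 in ccrfer. WRKY51 and WRKY30 differed by -2.27 and -2.06. Camalexin, the indole phytoalexin, is made through CYP71A13 and PAD3, and these were at 8.88, 10.6 and 9.45 in ccr and 0.795, 0.837 and 0 in ccrfer and at 56.9, 53.7 and 57.0 in ccr and 10.2, 13.4 and 9.87 in ccrfer, respectively. Of 9 tested camalexin genes 6 fell, while ABCG34, a transporter that exports camalexin, rose (0.99), as did GGP1 (0.60).

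Receptors of microbial patterns were lower for some ligands and not for others. RLP23, the receptor of the nlp20 peptide, was at 22.3, 22.6 and 24.1 in ccr and 4.71, 4.78 and 5.90 in ccrfer. SOBIR1, the kinase that partners such receptor-like proteins, was at 196, 181 and 184 in ccr and 63.2, 71.0 and 60.7 in ccrfer, and LYK5, a chitin receptor, at 24.3, 24.4 and 24.4 in ccr and 6.92, 7.19 and 7.80 in ccrfer. The differences of RLP23, SOBIR1 and LYK5 were -1.97, -1.51 and -1.61. The flagellin receptor gene FLS2 (difference 0.20, adjusted p = 0.455), the elongation factor Tu receptor gene EFR (0.17, adjusted p = 0.485) and their co-receptor gene BAK1 (-0.22, adjusted p = 0.0816) did not pass the test. In total 10 of 25 tested pattern recognition genes fell and 1, the kinase gene PBL1, rose (median -0.28). Intracellular immune receptors had 9 of 20 lower and 1 higher. ZAR1, which forms a resistosome, was at 88.6, 85.0 and 82.5 in ccr and 43.8, 49.4 and 43.9 in ccrfer (difference -0.89, SE 0.0734, adjusted p = 3.74e-06).

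Several other receptor-like kinases were lower. Of 25 tested cysteine-rich receptor-like kinases 14 fell and 3 rose (median -0.75). ARCK1 was at 15.0, 13.9 and 15.7 in ccr and 2.52, 2.72 and 1.097 in ccrfer, and CRK6 at 20.4, 19.9 and 20.9 in ccr and 3.43, 4.46 and 3.301 in ccrfer. Wall-associated kinases, which bind pectin as FER does, fell in 4 of 8 tested genes with 0 higher, and in 2 in the fit on the 6 libraries alone. WAK1 was at 107, 116 and 111 in ccr and 46.1, 44.5 and 37.8 in ccrfer (difference -1.36, SE 0.0697, adjusted p = 6.8e-08). Among FER's own relatives, HERK1 rose (0.44), and THE1, a sensor of wall damage, did not pass the test (0.06, adjusted p = 0.856). The same held for LLG1, the co-receptor that chaperones FER (0.08, adjusted p = 0.641). Of 11 tested members of the family and its partners, FER included, 3 rose and 3 fell. Without ccrfer replicate 3, 1 rose, and in the fit on the 6 libraries alone 1 fell. RALF23, a peptide ligand of FER, was at 104, 94.2 and 94.2 in ccr and 65.4, 79.2 and 47.0 in ccrfer and fell (-0.63), whereas RALFL24 (0.96) and RALFL32 (0.43) rose. The other 7 tested RALF peptide and leucine-rich repeat extensin genes had no call.

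**Figure D2:**
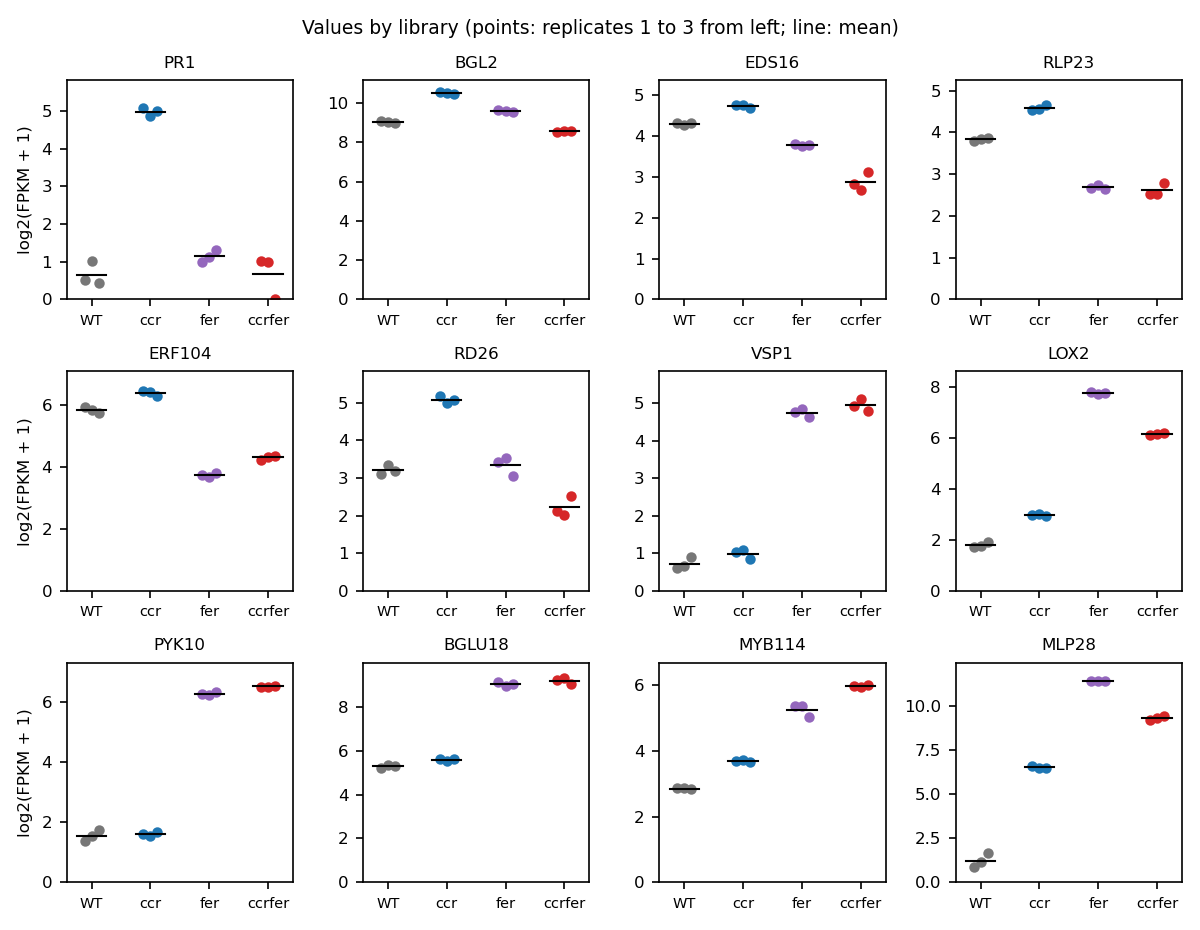
log2(FPKM + 1) in each library of the 4 genotypes for 12 genes; points are replicates 1 to 3 from left to right and the line is their mean. From PR1 to RD26 all ccrfer points lie below all ccr points, and from VSP1 to MLP28 above them. Non-overlap of ccr and ccrfer was a condition of naming these genes.

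Transcription factors that respond within minutes to touch or wounding were lower, while genes of calcium signalling were divided. Of 16 tested rapid factors 14 fell and 0 rose, with a median of -1.13 on the log2 scale. ERF104, an ethylene response factor released by a MAP kinase, was at 86.5, 85.1 and 78.3 in ccr and 17.9, 19.2 and 19.6 in ccrfer. STZ (ZAT10), a zinc-finger repressor, was at 113, 110.0 and 108 in ccr and 32.7, 34.4 and 20.09 in ccrfer, and MYB77 at 15.7, 16.0 and 14.9 in ccr and 3.88, 4.11 and 2.93 in ccrfer. These 3 genes were named on condition that the groups did not overlap. Only ERF13 and ZAT11 of the tested members had no call. Among calmodulin-like calcium sensors, CML37 was at 4.69, 5.29 and 4.998 in ccr and 0.125, 0.560 and 0 in ccrfer and TCH3 at 145, 134 and 133 in ccr and 51.5, 57.7 and 65.7 in ccrfer, while CML42 rose (0.89). That list had 5 lower and 1 higher of 9 tested. Cyclic nucleotide-gated channels were split, with 3 higher and 4 lower of 15, the latter 2 to 5 over the alternative settings. TCH4, a touch-induced xyloglucan endotransglucosylase that remodels primary walls, was at 32.5, 35.7 and 32.1 in ccr and 2.86, 3.59 and 0.799 in ccrfer (difference -3.44, SE 0.311, adjusted p = 8.24e-06). Of 16 tested genes of its family 3 rose and 3 fell. Expansins, which loosen walls, had 5 lower and 0 higher of 13 (3 to 6 lower over the alternative settings), led by EXLA3 at a difference of -2.18.

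Part of the jasmonate genes were higher in the double mutant, and some output genes were lower. LOX2, the lipoxygenase that starts synthesis in plastids, was at 6.95, 7.18 and 6.58 in ccr and 68.7, 70.3 and 71.3 in ccrfer (difference 3.17, SE 0.0672, adjusted p = 2.94e-11). AOC2, the allene oxide cyclase, was at 4.46, 3.94 and 4.86 in ccr and 16.1, 12.7 and 14.1 in ccrfer. Of 19 tested genes of synthesis and turnover 11 rose and 0 fell. Turnover genes were among those that rose, with ILL6, an amidohydrolase of the active conjugate, at 1.26 and ST2A, a sulfotransferase, at 1.18. JAZ repressors, which jasmonate itself induces, had 6 higher and 0 lower of 13. JAZ10 was at 2.36, 2.23 and 1.86 in ccr and 15.5, 9.63 and 4.72 in ccrfer, a wide spread within ccrfer. JAZ6 was at 49.5, 48.4 and 50.04 in ccr and 105, 104 and 131 in ccrfer.

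Output genes were divided. VSP1, a storage protein used as a jasmonate marker, was at 1.06, 1.11 and 0.816 in ccr and 29.6, 33.9 and 26.8 in ccrfer (difference 3.96, SE 0.127, adjusted p = 1.06e-09), and its neighbour VSP2 was at 126, 136 and 124 in ccr and 821, 843 and 745 in ccrfer. THI2.1, a thionin, was at 0.313, 0.125 and 0.178 in ccr and 10.09, 10.7 and 7.23 in ccrfer. In contrast TAT3, a tyrosine aminotransferase, was at 26.2, 26.9 and 24.96 in ccr and 7.48, 7.73 and 6.59 in ccrfer, and NAC019 (-1.58) and the regulator MYC2 (-0.44) fell too. Counts were 5 higher and 4 lower of 13. ARGAH2, an arginase that the reference annotation describes as induced by methyl jasmonate, was at 4.68, 4.51 and 3.61 in ccr and 93.4, 108 and 98.3 in ccrfer, among the largest increases. Of 5 tested genes of joint ethylene and jasmonate defence 1 rose (20%), near the 20.5% of all tested genes that were called. Of 12 tested ethylene genes 1 had a call, ACS6, a synthase of the ethylene precursor, which fell (-1.86). VSP1 and VSP2 are similar in sequence, as are many family members named here, and how the authors divided shared fragments is not given in the sources used here.

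Every tested gene of the endoplasmic reticulum body list was higher in ccrfer. These bodies are spindle-shaped stores of beta-glucosidases in Brassicaceae, and the enzymes bind jacalin-related lectins when tissue is broken. All 17 rose (median 1.98). PYK10, the main glucosidase of the bodies, was at 2.07, 1.92 and 2.21 in ccr and 90.3, 90.4 and 92.1 in ccrfer (difference 4.91, SE 0.0936, adjusted p = 1.31e-11). BGLU18, another glucosidase of the same kind, was at 48.0, 44.8 and 48.2 in ccr and 587, 623 and 529 in ccrfer, and NAI2, which the bodies need to form, at 1.32, 1.58 and 1.65 in ccr and 23.3, 23.6 and 27.0 in ccrfer. NAI1, the transcription factor of the bodies, was low, with means of 0.245 in ccr and 2.45 in ccrfer, and rose as well (1.40). Some of the list members lay in a run on chromosome 3, where 10 tested genes in a row were all called higher. The run went from ABCG29, which rose least (0.20), to the lectin gene JR1. PBP1, JAL31, JAL33, JAL34 and JR1 belong to the list and are already counted among the 17. ABCG29, AT3G16350, AHP4, AT3G16370 and NSP1 do not belong to it. Within that run JR1 went from 39.5 ± 1.55 to 223 ± 11.7 (FPKM, mean ± SD, n = 3) and PBP1, a lectin that binds PYK10, from 31.3 ± 1.202 to 115 ± 16.1. NSP1, a nitrile-specifier protein that lies before them in the run, went from 44.4 ± 2.18 to 178 ± 7.54.

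**Figure D3:**
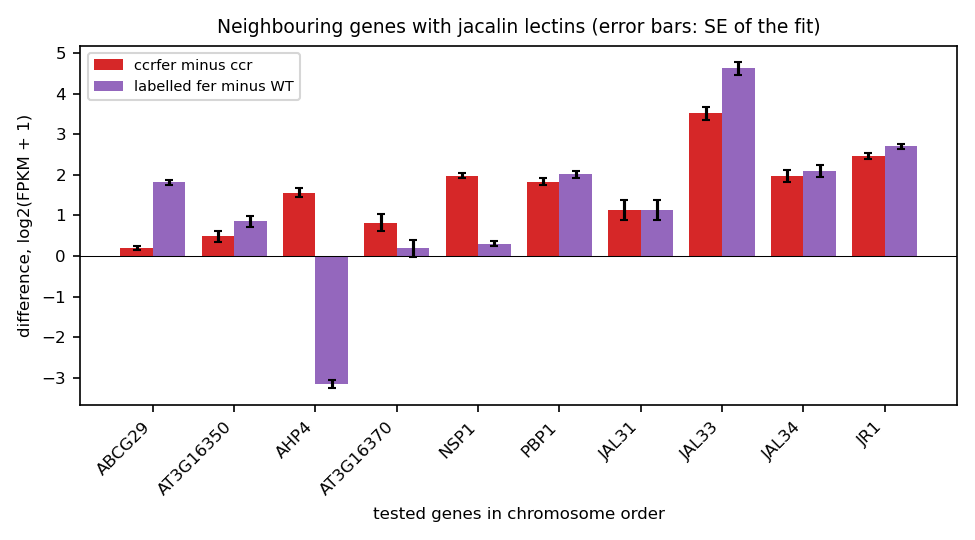
Difference on the log2(FPKM + 1) scale (vertical axis) of the 10 neighbouring genes on chromosome 3 called higher in ccrfer, in chromosome order (horizontal axis), for ccrfer minus ccr (red bars) and the libraries labelled fer minus WT (violet bars), with the SE of the fit as error bars. JAL33 had the largest ccrfer minus ccr difference (3.52) and AHP4 the opposite sign in the libraries labelled fer.

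Glucosinolates, the mustard oil precursors, and the myrosinases that hydrolyse them were higher for the most part. Of 20 tested aliphatic glucosinolate genes 17 rose and 2 fell (median 0.80). CYP79F2, an entry enzyme, was at 18.3, 20.06 and 18.18 in ccr and 43.1, 40.8 and 40.4 in ccrfer. The regulators did not move as 1 group, since MYB76 (1.25) and MYB29 (0.94) rose and MYB28 fell (-0.15). Indolic glucosinolate genes had 9 higher and 5 lower of 15, and the lower count was 1 to 5 over the alternative settings and 3 in the fit on the 6 libraries alone. CYP81F4, which modifies the indole ring, was at 0.975, 0.551 and 0.700 in ccr and 16.1, 19.3 and 11.7 in ccrfer, whereas the methyltransferase gene IGMT2 fell (-1.07). Myrosinases and their binding and specifier proteins had 9 higher and 0 lower of 10. MBP1, a myrosinase-binding lectin, was at 22.6, 23.2 and 24.0 in ccr and 239, 253 and 264 in ccrfer (difference 3.38, SE 0.0864, adjusted p = 1.31e-10).

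Genes of the woody wall were higher by moderate steps. Of 22 tested genes of secondary wall cellulose and xylan 19 rose and 0 fell (median 0.76). IRX9, a xylan synthase subunit, was at 18.6, 19.6 and 19.8 in ccr and 40.7, 34.1 and 40.8 in ccrfer. In lignin biosynthesis 13 of 25 rose and 1, CAD5, fell (median 0.27), and the count that rose was 8 to 14 over the alternative settings. Laccases, which polymerize lignin, were among those that rose, with LAC11 at 3.16, 2.40 and 2.87 in ccr and 11.2, 12.5 and 16.7 in ccrfer and LAC17 at 12.3, 13.2 and 11.2 in ccr and 35.3, 33.3 and 34.9 in ccrfer. Of the early enzymes of the pathway, PAL1 (0.33) and C4H (0.30) rose. AtMYB103, a regulator of secondary walls, was at 10.2, 11.6 and 9.80 in ccr and 29.0, 29.5 and 51.6 in ccrfer, highest in the replicate that stood apart. Secondary wall regulators had 10 higher and 2 lower of 26. Developmental cell death genes had 5 higher and 1 lower of 8 (median 0.98). XCP2, a protease of dying xylem vessels, was at 18.8, 18.7 and 19.0 in ccr and 60.6, 64.7 and 56.5 in ccrfer (difference 1.63, SE 0.0744, adjusted p = 2.63e-08).

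Markers of neighbouring stem tissues were given beside these groups, and their part in the results was not tested. Of 14 tested cambium and vascular patterning genes 5 rose and 2 fell, with WOX4, a cambium regulator, at 12.8, 12.3 and 13.0 in ccr and 20.7, 25.4 and 35.0 in ccrfer. Phloem genes had 7 higher and 0 lower of 13, and their summed level was 531 to 581 FPKM in ccr and 619 to 745 in ccrfer. Wax and cutin genes of the epidermis had 10 higher and 0 lower of 16, with the alkane-forming enzyme gene CER1 at 13.3, 13.1 and 11.7 in ccr and 30.3, 34.2 and 39.6 in ccrfer. Epidermis and trichome markers had 4 higher and 1 lower of 8 (2 higher in the fit on the 6 libraries alone), and summed to 38.1 to 40.2 FPKM in ccr and 47.7 to 61.6 in ccrfer. Markers of organs other than stems were low. Flower and pollen markers summed to 2.54 to 3.18 FPKM in ccr and 4.92 to 5.76 in ccrfer, seed and silique markers to 4.47 to 4.94 FPKM in ccr and 0 to 2.31 in ccrfer and root markers to 15.0 to 15.4 FPKM in ccr and 14.9 to 20.0 in ccrfer. Of the 14 flower and pollen markers 13 were below 1 FPKM in all 6 libraries, as were 13 of 15 seed and silique markers and 9 of 13 root markers. Among the tested markers 1 of 2 for flowers rose, 2 of 10 for seeds fell and 1 of 3 for roots fell. Without ccrfer replicate 3 no flower marker rose and no seed marker fell. Most tested seed markers passed the 1 FPKM filter only through libraries other than these 6.

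Most pigment and latex-protein genes were higher. Of 20 tested flavonoid and anthocyanin genes 14 rose, and 1, the repressor gene MYBL2, fell (-0.38). MYB114, an anthocyanin regulator, was at 11.9, 12.1 and 11.7 in ccr and 61.1, 60.2 and 63.1 in ccrfer, and MYB90 at 8.85, 10.8 and 8.13 in ccr and 45.8, 40.0 and 33.0 in ccrfer. With MYB113, RGL1 and AT1G66360 they form 5 neighbours on chromosome 1 that were all called higher. Major latex proteins, small proteins of unsettled function, had 6 higher and 0 lower of 8. MLP28 was at 95.8, 86.7 and 88.1 in ccr and 584, 629 and 675 in ccrfer, and MLP328 at 0.305, 0.137 and 0 in ccr and 14.4, 16.5 and 17.42 in ccrfer. Runs of neighbours also went down. On chromosome 1, from AT1G72890 to AT1G72950, where the annotation lists Toll/interleukin-1 receptor domain proteins, 7 tested genes in a row were called lower, with AT1G72910 at 68.3 ± 0.351 in ccr and 17.1 ± 1.62 in ccrfer (FPKM, mean ± SD, n = 3). EP1, CRK10, CRK11, CRK14 and CRK15, neighbours on chromosome 4, were all called lower, with differences from -1.50 for CRK14 to -0.81 for CRK15.

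Abscisic acid and drought genes fell for the most part. Of 24 tested genes 14 fell and 2 rose (median -0.45). RD26, a NAC factor of drought, was at 35.1, 30.7 and 32.9 in ccr and 3.36, 3.07 and 4.78 in ccrfer (difference -2.85, SE 0.154, adjusted p = 1.01e-07). HAI1, a phosphatase that dampens the hormone signal, was at 16.2, 16.2 and 16.4 in ccr and 2.96, 3.74 and 4.05 in ccrfer. P5CS1, which makes proline, was at 81.9, 79.4 and 77.5 in ccr and 30.6, 31.6 and 30.4 in ccrfer. Aquaporins, the water channels, had 9 lower and 2 higher of 17, with PIP2B at 129, 126 and 116 in ccr and 43.1, 54.0 and 29.7 in ccrfer. Cold response genes had 6 lower and 1 higher of 12, with 3 lower in the fit on the 6 libraries alone. Heat shock genes had 5 lower and 1 higher of 12, with a median of only -0.10. Their summed level varied widely within each genotype, from 223 to 829 FPKM in ccr and from 166 to 1103 in ccrfer.

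Growth hormone, nutrient, clock and sugar genes moved in both directions. Over all tested genes 20.5% were called, 10.4% higher and 10.1% lower. Shares called were close to that for nuclear photosynthesis (27.6%) and iron and copper (28.6%) genes and lower for cell division genes (8.33%). Auxin response genes had 4 lower and 1 higher of 16, cytokinin genes 4 higher and 2 lower of 14, and gibberellin and brassinosteroid genes 4 lower and 1 higher of 13. ARR7, a cytokinin-induced response regulator, was at 12.8, 12.5 and 12.9 in ccr and 33.3, 27.3 and 25.2 in ccrfer. Phosphate starvation genes had 5 higher and 1, the phosphatase gene PAP17, lower of 17. In sulfur deficiency, 5 of 12 fell and 2 rose, and LSU1 was at 32.5, 28.7 and 31.1 in ccr and 4.57, 1.497 and 0 in ccrfer. FSD1, the iron superoxide dismutase that plants exchange for a copper enzyme, was at 0.298, 0.670 and 0.820 in ccr and 43.4, 32.8 and 30.2 in ccrfer (difference 4.51, SE 0.139, adjusted p = 7.68e-10), while the iron and copper list had 1 higher and 3 lower of 14. Clock genes had 3 higher and 6 lower of 18 (5 higher without ccrfer replicate 3 and 1 in the fit on the 6 libraries alone), with the morning factor gene LHY at -0.55 and the evening regulator gene PRR5 at 0.93. Sugar status genes had 3 higher and 6 lower of 16, leaf senescence genes 2 and 4 of 14, nuclear photosynthesis genes 5 and 3 of 29, and cell division genes 1 and 0 of 12. For nuclear photosynthesis genes the alternative settings gave 2 to 7 higher and 2 to 6 lower.

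**Figure D4:**
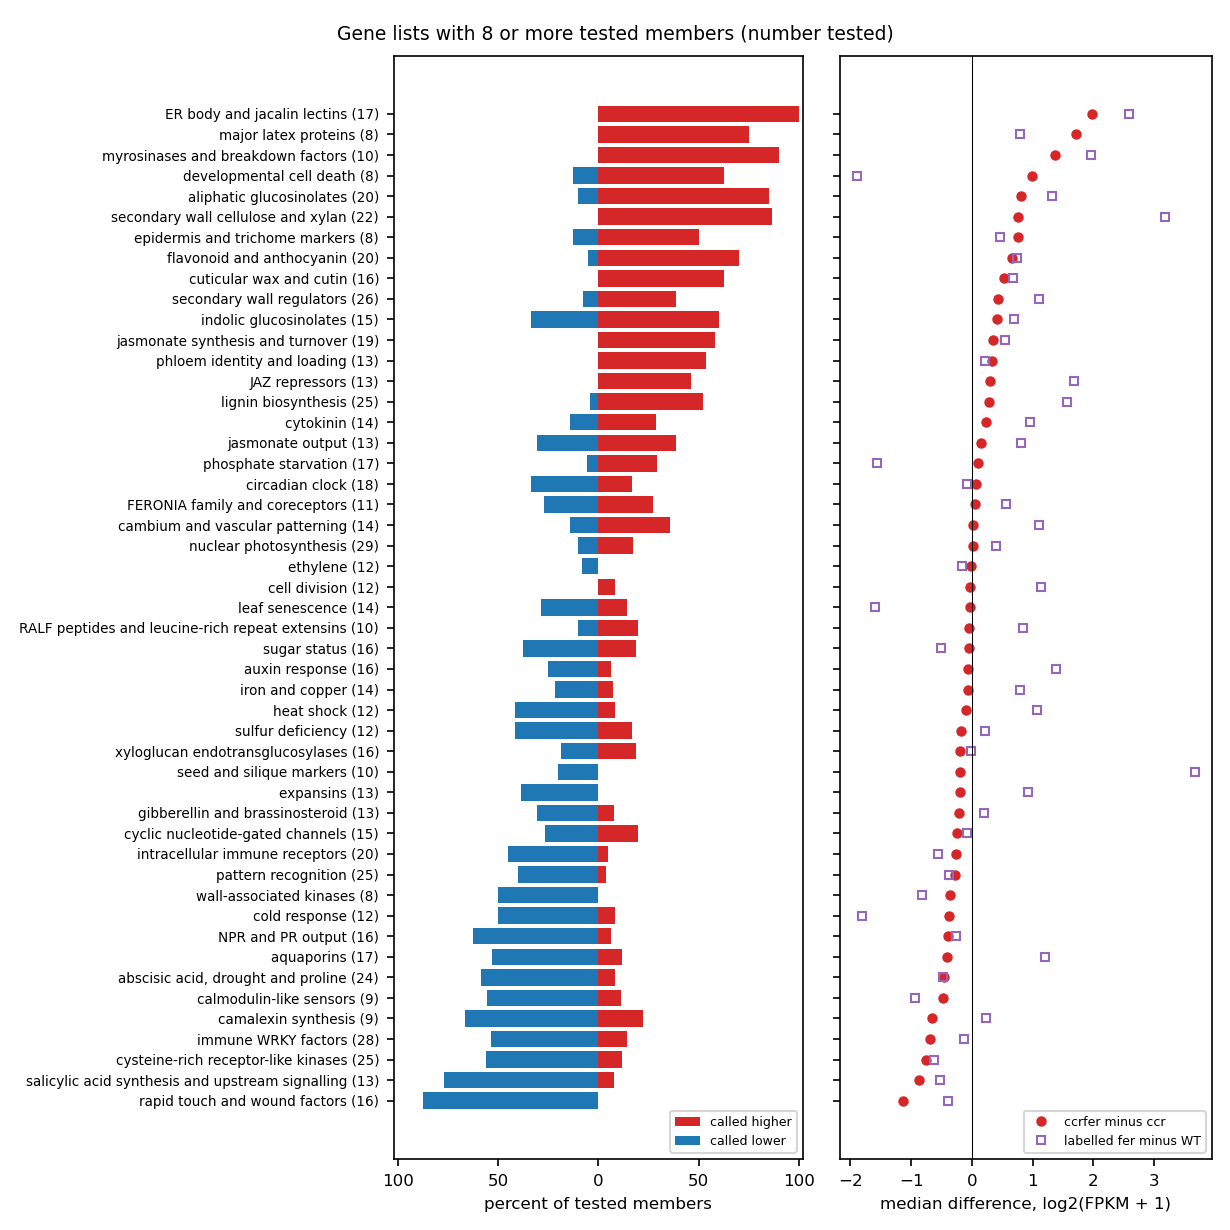
Only gene lists with 8 or more tested members are drawn. Left, percent of tested members of each drawn list called higher (right of 0) or lower (left of 0) in ccrfer than in ccr. Right, median difference of the same members on the log2(FPKM + 1) scale for ccrfer minus ccr (filled points) and for the libraries labelled fer minus WT (open squares). The endoplasmic reticulum body list stands at the top with all 17 members higher and rapid touch and wound factors at the bottom.

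Some of the largest values came from genes listed at exactly 0 in a genotype. ATCG00280, ATCG00340, ATCG00270, ATCG00350 and AT2G07698 were listed at 0 in all ccr libraries. ATCG00340 was at 5127, 4466 and 5623 in ccrfer and at 4275, 4886 and 5188 in WT. ATCG00280 was at 5964, 6083 and 5693 in ccrfer and listed at 0 in WT as well. Exact zeros beside levels this high can arise where an estimate failed, and no fold is given. AT5G13565 and AT1G53541, both uncharacterized, were listed at 0 in all ccrfer libraries, with 49.0, 62.4 and 36.9 and 77.3, 15.4 and 82.2 in ccr. The largest spread among ccrfer libraries was that of ATCG00210, at 22579, 12414 and 0.

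The libraries labelled fer, with CCR1 intact, were set beside these values. The libraries labelled fer and WT share no library with ccr and ccrfer, but FER was at the WT level in the former. In that comparison 51.6% of tested genes were called, 28.4% higher and 23.2% lower. Of the 1912 genes higher in ccrfer, 1095 (57.3%) were also called higher there, which is 20.9% of the 5237 genes higher in the libraries labelled fer, and 381 (19.9%) were called lower. Of the 1857 genes lower in ccrfer, 801 (43.1%) were also called lower there, which is 18.7% of 4281, and 526 (28.3%) were called higher. The opposite calls, 19.9% and 28.3%, stand against 23.2% and 28.4% of all tested genes called that way. The endoplasmic reticulum body list had 16 higher and 0 lower, median 2.59 there. JAZ repressors had 11 higher and 1 lower, median 1.69, and salicylic acid synthesis and upstream signalling 3 higher and 8 lower, median -0.52. PYK10 reached 76.5, 73.6 and 80.1 under the fer label and 1.62, 1.88 and 2.38 in WT, so that it was high in both sets with a fer label and low in both without. For PR1 the samples labelled fer had 0.988, 1.2 and 1.47 and WT had 0.419, 1.04 and 0.361, all below every ccr library. Developmental cell death genes had 2 higher and 6 lower, median -1.89, and secondary wall cellulose and xylan genes 21 higher and 0 lower, median 3.18. Of the latter, IRX9 was at 0.234, 0.618 and 0.373 in WT and FLA11 at 1.85, 2.41 and 2.46. Both were also higher in ccr than in WT, by 3.86 and 5.40 on the log2 scale. Seed and silique markers had 9 higher and 0 lower of 10, median 3.67 there. As 13 of 15 were below 1 FPKM in all 6 ccr and ccrfer libraries, most passed the filter through the libraries labelled fer or WT. Their count is thus partly set by that filter, and their part in these values was not tested. The difference between the ccrfer minus ccr and labelled fer minus WT changes was itself called for 7270 genes (39.5%).

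The authors' deposited table lists 313 genes, and in the authors' deposited table the mean of every one was lower in ccrfer than in ccr. Of the 310 tested here, 249 were called lower in ccrfer, 0 higher and 61 had no call. Every adjusted p that the authors gave there for ccr and ccrfer was under 0.05, so the genes were selected on this comparison. The table held 0 genes with a higher mean in ccrfer, whereas 1912 genes were called higher here. Its direction thus belongs to the choice of genes. The table was also made from these same libraries, so its direction is not independent evidence.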

How the data were processed

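The FPKM value of each gene and library was made by the authors. The submitters' processing notes name TopHat2 2.1.1, Bowtie2 2.3.2.0, Cufflinks 2.2.1 and Cuffdiff, the last with no version, and the build TAIR10 with Araport11. A smaller table gives, per the file headers, the authors' mean FPKM, log2 ratios and p-value columns for 313 genes, and a read report gives the authors' counts of reads and mapped fraction per library. No gene-level counts were used, so the depth behind a single gene is unknown.

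Values were taken as log2(FPKM + 1), a scale that understates changes of low genes. Genes with 1 FPKM in at least 3 of the 12 libraries entered limma 3.58.1 (R 4.3.3), fitted with 1 mean for each of the 4 genotypes and a variance trend (empirical Bayes). All 12 libraries share that estimate of spread. P-values are two-sided and adjusted by Benjamini-Hochberg over 18428 genes, and a gene was called at an adjusted p under 0.05. SE is that of the fit. The labels speak of biological replicates without naming separate plants, so p-values measure the spread between these libraries.

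The comparison and the 53 gene lists were chosen with earlier results of these data known. Of 1017 list entries 946 were found and 773 tested, and chloroplast-encoded genes could not be matched by name and are not reported as a list. Genes were named by a rule. It took FER and CCR1, and the 12 largest called differences each way without overlap and with 5 FPKM or more in the higher genotype. It also took the 5 largest FPKM differences each way under the same conditions and up to 4 called members per list without overlap. The 5 genes of largest spread in ccrfer and the neighbours of FER were added. Non-overlap of ccr and ccrfer in genes named as largest or as called list members was thus a condition of their choice. Further list members, runs of neighbours and the genes of the promoter display were chosen after their values were seen. Symbols and promoters are RefSeq's for TAIR10.1, in which 27445 of 27655 identifiers had an entry; 1 promoter sequence is not reported here.

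Same-numbered ccr and ccrfer libraries had deviations from their genotype means that correlated between -0.0547 and -0.0257, so the numbers were not taken as pairs. Alternatives were a pseudocount of 0.1, no filter, median-of-ratios scaling, quantile normalization, a replicate block, the 6 libraries alone, array weights and leaving out each library.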

Additional observations from a re-analysis of the deposited data

Results flagged for a closer look

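Of the 24 genes of largest difference between ccrfer and ccr, 7 were listed at 0 in every library of a genotype and were left out here. In 13 of the others the ccrfer minus ccr difference departed from the difference between the libraries labelled fer and WT. The test was limma's on the difference between both contrasts, and it called 39.5% of all tested genes. The genes were chosen by their ccrfer minus ccr difference, which is part of the tested contrast, so the choice favours a departure. The libraries labelled fer had as much FER transcript as WT, so the contrasts do not stand for the same loss of transcript.

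For FER itself the departure was -5.81 (adjusted p = 1.95e-08). Among genes lower in ccrfer it was -5.16 for LSU1 (adjusted p = 6.98e-05), -4.80 for PR1 (adjusted p = 8.47e-07), -4.14 for AT4G32480 (adjusted p = 3.73e-08), -3.93 for AT5G03350, a legume lectin (adjusted p = 1.6e-05), -3.51 for PCR1 (adjusted p = 1.63e-05), -3.33 for AT3G13610, an oxygenase (adjusted p = 4.56e-07), and -2.13 for AT5G52760 (adjusted p = 0.0277). LSU1 differed by 1.43 between the libraries labelled fer and WT (adjusted p = 0.0233) and by -3.72 between ccrfer and ccr. LURP1, a defence gene, was lower in both contrasts, by -3.44 and -3.82, and departed by 0.38 (adjusted p = 0.0275).

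Among genes higher in ccrfer the departure was 4.01 for MLP328 (adjusted p = 2.42e-06), 3.70 for FSD1 (adjusted p = 4.43e-08), 1.22 for AT4G11320, a papain-type protease (adjusted p = 5.81e-05), and -0.46 for ARGAH2 (adjusted p = 0.0427). ARGAH2 and AT4G11320 were higher in both contrasts. The causes were not tested.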

How the results depend on the processing

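The count of genes called between ccrfer and ccr was 3769 and stayed within 1.5 times of that under every alternative run, from 2641 to 4770, and the number of called genes shared with it was 2628 to 3714. Leaving out 1 library gave 2641 to 4297 genes. The fit over the 6 libraries alone gave 2715, array weights 4770, and the replicate block 3650, where the replicate number did not pair the libraries; 3479 of the genes called with the block were also called without it. FER differed by -7.05 to -5.51. Of 222 named genes other than FER, 212 were called in the main fit. Of these 212, 33 lost their call under at least 1 alternative. The signs that turned were those of genes without a call, except PSBR, a photosystem gene, at 0.38 in the main result and at -0.11 after quantile normalization (adjusted p = 0.538). CCR1 was at -0.042 to 0.14 when 1 library was left out, AT3G51580 at -0.027 to 0.10, and AT3G51500 at -0.21 to 0.34 and at 0.29 with array weights. AT3G51500, a neighbour of FER with no call, was called higher without ccrfer replicate 3 (0.34, adjusted p = 0.0182). ATCG00210 was at -6.01 to 1.22 and at 0.30 with array weights. Without ccrfer replicate 3, the counts called lower were 11 for NPR and PR output, 12 for pattern recognition and 14 for rapid factors, and those called higher were 17 for the endoplasmic reticulum body list and 21 for secondary walls. FERONIA family members called higher went from 3 to 1, clock genes from 3 to 5, and seed markers called lower from 2 to 0. Other list counts that moved by over 1.5 times are given beside those counts, except those of 2 or fewer genes, which ranged from 0 to 4. The causes were not tested. Depth behind single genes is unknown, which limits genes near 1 FPKM most.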
